A study of Mus musculus with 6 samples.

Results

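The ERK response and feedback genes examined here are 10 mouse genes: Etv4, Etv5, Dusp4, Dusp6, Spry2, Spry4, Spred1, Spred2, Egr1 and Fosl1. They were taken by name, and every probe set that the array's annotation pairs with one of these symbols alone was used, which gave 10 of 18193 genes and 29 of 45037 probe sets. All cells were of the R1 mouse embryonic stem cell line, carried a lentivirus and had been selected by GFP fluorescence. KIAA1718 shRNA1, a short hairpin RNA against KIAA1718, was present in 3 samples, and an shRNA against luciferase, the control, in the other 3. KIAA1718 is the histone demethylase encoded by Kdm7a. RNA was measured on Affymetrix mouse expression arrays, 1 array a sample. Each group rests on 1 hairpin sequence, so an effect on KIAA1718 and any other effect of that sequence cannot be told apart. The labels do not describe the replicates as independent cultures, and the p-values therefore reflect variation among these arrays alone, part or all of which may be technical.

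ERK is the last kinase of the cascade that carries signals from growth factor receptors through Ras, Raf and MEK. In mouse embryonic stem cells the main input is Fgf4, which the cells make themselves, and ERK activity moves them away from naive pluripotency towards lineage commitment. Active ERK induces transcription factors such as Egr1, Fosl1, Etv4 and Etv5. It also induces its own inhibitors: the phosphatases Dusp4 and Dusp6, and the Sprouty and Spred proteins, which act further up the cascade. The RNA of these genes is widely read as a measure of ERK output, and no phosphorylated ERK was measured here.

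Deposited signals were not on a common scale, with a median per array of 9.58 to 13.3, so signals quoted below are the deposited intensities and differences come from quantile-normalized values on the log2(signal + 16) scale, which understates the change of dim probe sets. A difference is KIAA1718 shRNA1 minus luciferase shRNA, and it passed where limma's adjusted p over all 27022 tested probe sets was under 0.05. Kdm7a, the target, had a signal of 33.2 ± 8.64 in KIAA1718 shRNA1 cells and 36.5 ± 7.39 in luciferase shRNA cells (SD, n = 3 each), and its log2 difference was -0.20 (95% interval -0.54 to 0.14, limma adjusted p = 0.534). Its other tested probe sets differed by -0.16 and -0.22 (limma adjusted p of 0.585 and 0.458). After normalization the groups did not overlap for the latter, the dimmest of them, as for 27.9% of all genes tested. All tested Kdm7a probe sets were dim and lay below 0, but none passed. A lower level of the target's RNA was thus not shown, and the groups are named by their labels. The embryonic stem cell markers were bright in both groups. Pou5f1, which encodes Oct4, had a signal of 1056 ± 124 in KIAA1718 shRNA1 cells and 1095 ± 31.3 in luciferase shRNA cells. Of the 10 stem cell markers tested, however, 9 lay below 0 in the comparison and 3 of them passed (Fgf4, Esrrb and Utf1). Markers of embryonic fibroblasts, the usual feeder cells, were detected as well. All 22 lay below 0 in the comparison, with 1 (Pdgfra) past the threshold and none at a signal of 0. Their summed signal was 6561 to 9784 on KIAA1718 shRNA1 arrays and 6688 to 13144 on luciferase shRNA arrays. Their part in the results below was not tested.

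Sequence before the transcription start (RefSeq, GRCm38.p6) was searched for 5 of the 10 genes: Etv5, Dusp6, Spry2, Spred1 and Spred2. Etv4, Dusp4, Spry4, Egr1 and Fosl1 were not searched, so no site is called present or absent for them. Of the 5 genes searched, 3 carry CGGAA there, a form of the core of the ETS sites that Etv4 and Etv5 bind. Other forms of the core were not searched. These stretches of 250 bases are shown because ETS factors act through such sites, and capitals mark CGGAA or its reverse complement. Dusp6 lies at chr10:99262981-99263230 on the plus strand, Spred2 at chr11:19924192-19924441 on the plus strand and Spred1 at chr2:117120821-117121070 on the plus strand.
Dusp6: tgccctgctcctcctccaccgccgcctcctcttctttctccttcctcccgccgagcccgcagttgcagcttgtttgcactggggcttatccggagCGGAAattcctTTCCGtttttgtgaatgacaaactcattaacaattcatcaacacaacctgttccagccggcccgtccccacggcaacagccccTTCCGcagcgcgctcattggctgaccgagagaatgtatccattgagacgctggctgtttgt
Spred2: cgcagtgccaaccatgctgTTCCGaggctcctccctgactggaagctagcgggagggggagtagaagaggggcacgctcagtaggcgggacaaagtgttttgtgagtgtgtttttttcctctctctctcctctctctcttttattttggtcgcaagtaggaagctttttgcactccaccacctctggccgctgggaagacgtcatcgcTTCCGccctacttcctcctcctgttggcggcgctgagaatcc
Spred1: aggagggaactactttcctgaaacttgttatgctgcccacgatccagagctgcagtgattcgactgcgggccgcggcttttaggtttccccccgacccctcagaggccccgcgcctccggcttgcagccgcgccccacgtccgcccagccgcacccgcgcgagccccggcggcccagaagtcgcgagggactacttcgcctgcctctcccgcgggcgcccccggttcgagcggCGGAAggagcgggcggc
CGGAA was found on either strand in 25.2% of all 32851 promoter windows of this length, so it is common. The windows of Etv5 and Spry2 did not hold CGGAA on either strand, which does not show that they lack an ETS site. AP-1 sites (TGANTCA, in 6.75% of all windows), CRE sites (TGACGTCA, in 1.55%) and CArG boxes (in 1.47%) were searched on both strands and none was in the windows of these 5 genes.

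Of the 10 genes, 1 rose and 1 fell, taking each by its brightest probe set: the phosphatase gene Dusp4 was higher and the ETS factor gene Etv4 lower in KIAA1718 shRNA1 cells. That is 2 of 10, against 4.82% of the 12742 genes tested (2.64% higher and 2.17% lower). The members and lists were chosen with earlier results of these data known. Shares of all genes, here and below, are therefore given as a description and not as a test. Counted by probe set, 27 of the 29 had enough signal to be tested and 2 passed, 1 in each direction, against 3.67% of all tested probe sets (1.94% higher and 1.74% lower). The median difference of the 10 genes was -0.04 and that of all genes 9.72e-05, while the median size of the difference, without its sign, was 0.27 for the 10 genes and 0.15 for all genes. The 10 genes thus spread to both sides, from -0.65 to 0.58, with 4 above 0 and 6 below. They lie at percentiles 68.0 to 96.6 of mean normalized level among all probe sets, and the genes tested include dimmer ones. The scale shrinks the differences of dim genes, so the median sizes are not compared like for like.

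**Figure D1:**
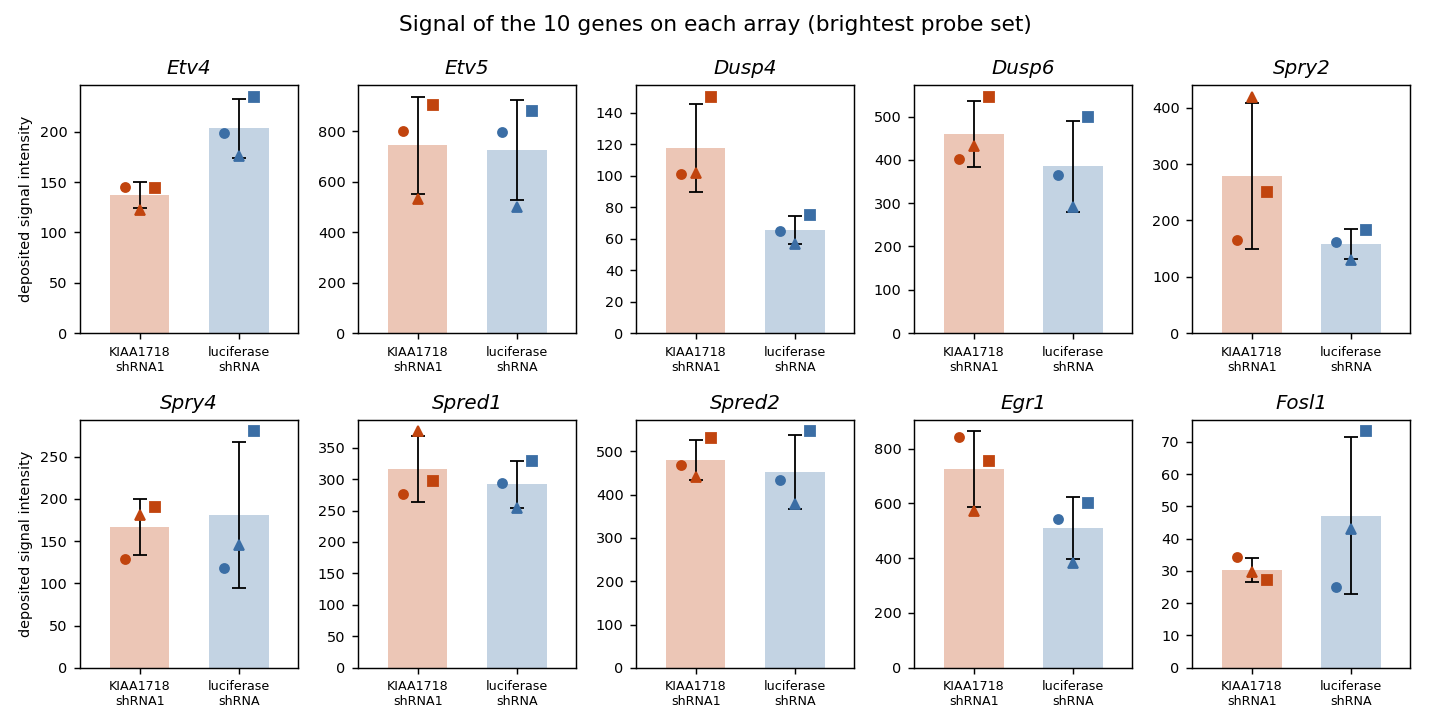
Deposited signal intensity (linear axis from 0, not scaled between arrays) of each gene's brightest probe set, KIAA1718 shRNA1 left and luciferase shRNA right; bars are means, whiskers SD (n = 3), and circles, triangles and squares are replicates 1, 2 and 3. Etv4 lies lower and Dusp4 higher in all 3 KIAA1718 shRNA1 arrays than in any luciferase shRNA array, and the groups of the other 8 genes overlap.

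Etv4 and Etv5 encode closely related ETS transcription factors of the PEA3 group and are among the RNAs that respond most readily to FGF and ERK. Etv4 had signals of 145, 123 and 144 in KIAA1718 shRNA1 replicates 1, 2 and 3, against 199, 176 and 235 in luciferase shRNA replicates 1, 2 and 3. Every KIAA1718 shRNA1 array was below every luciferase shRNA array. The log2 difference was -0.65 ± 0.11 (SE), with a 95% interval of -0.89 to -0.40 (limma adjusted p = 0.0112). In bulk RNA, fewer cells that express a gene and less RNA per cell cannot be told apart. The call was lost with unscaled signals, where the difference was -0.51 against a median of 0.11 for all genes, and without replicate 3 of either group (-0.62 without KIAA1718 shRNA1 replicate 3, -0.66 without luciferase shRNA replicate 3). A second, dim Etv4 probe set, at 17.6 ± 4.61 in KIAA1718 shRNA1 cells and 23.96 ± 10.99 in luciferase shRNA cells, differed by -0.30 (limma adjusted p = 0.348) with groups that overlapped.

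Etv5 did not pass with any of its 3 probe sets. The brightest had signals of 801, 531 and 904 in KIAA1718 shRNA1 cells, against 799, 501 and 879 in luciferase shRNA cells. Replicate 2 was the low array in both groups, and same-numbered arrays had nearly equal signals. The log2 difference was -0.08 with a 95% interval of -0.47 to 0.32 (limma adjusted p = 0.861). The other 2 probe sets differed by -0.20 and -0.07 (limma adjusted p of 0.626 and 0.867). The normalized difference of Etv4 minus Etv5 on each array was -2.28 ± 0.32 in KIAA1718 shRNA1 cells and -1.72 ± 0.26 in luciferase shRNA cells (SD, n = 3 each, log2). It shifted by -0.57, with an exact permutation p of 0.1, the smallest that 3 against 3 arrays allow, and 0.2 after adjustment over the 4 pairs of related genes compared. That test does not use the replicate numbers, and within numbers 1, 2 and 3 the shift was -0.48, -0.52 and -0.70.

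Dusp4 and Dusp6 encode dual-specificity phosphatases that remove the activating phosphates of ERK, Dusp4 in the nucleus and Dusp6 in the cytoplasm. Dusp4 had signals of 101, 102 and 150.3 in KIAA1718 shRNA1 cells, against 64.7, 56.8 and 74.9 in luciferase shRNA cells. The groups did not overlap. Its log2 difference was 0.58 ± 0.13 (SE), with a 95% interval of 0.30 to 0.87 (limma adjusted p = 0.0340). The size kept between 0.40 and 0.70 over the 14 alternatives, but the call passed in 6 of them. It was lost in each of the 6 fits without 1 array (differences of 0.47 to 0.65, limma adjusted p from 0.0503 to 0.138), with unscaled signals (0.70, limma adjusted p = 0.0543) and without a filter on low signal (limma adjusted p = 0.0813).

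Dusp6, whose promoter above holds 3 ETS cores of the form CGGAA, had signals of 402, 431 and 546 in KIAA1718 shRNA1 cells, against 366, 291 and 499 in luciferase shRNA cells. Each KIAA1718 shRNA1 array was above the luciferase shRNA array of the same number, and the groups overlapped. The normalized log2 difference was 0.13 with a 95% interval of -0.12 to 0.39 (limma adjusted p = 0.599). Dusp4 minus Dusp6 shifted by 0.45 between the groups, from per-array differences of -1.83 ± 0.05 in KIAA1718 shRNA1 cells and -2.28 ± 0.22 in luciferase shRNA cells (SD, n = 3 each, log2; exact permutation p = 0.1, adjusted p = 0.2). Within numbers 1, 2 and 3 the shift was 0.39, 0.22 and 0.75.

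Spry2 and Spry4 encode Sprouty proteins, inhibitors that act between the receptor and Raf. Spry2 had signals of 165, 420 and 251 in KIAA1718 shRNA1 cells, against 161, 130.1 and 183 in luciferase shRNA cells. KIAA1718 shRNA1 replicate 2 stood above all other arrays, while replicate 1 was within the luciferase shRNA range. The log2 difference was 0.53 with a 95% interval of 0.02 to 1.04 (limma adjusted p = 0.246). It was 0.19 without KIAA1718 shRNA1 replicate 2 and 0.79 without KIAA1718 shRNA1 replicate 1. The second Spry2 probe set, at 15.1 ± 1.65 in KIAA1718 shRNA1 cells and 13.2 ± 5.32 in luciferase shRNA cells, differed by 0.0088 (limma adjusted p = 0.988).

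Spry4 had signals of 129, 181 and 189.8 in KIAA1718 shRNA1 cells, against 119, 146 and 279.8 in luciferase shRNA cells, on its brightest probe set. Luciferase shRNA replicate 3 was the high array and the groups overlapped. The log2 difference was -0.19 with a 95% interval of -0.60 to 0.23 (limma adjusted p = 0.661). All 4 Spry4 probe sets lay below 0. The next in brightness had signals of 80.8, 52.5 and 114.6 in KIAA1718 shRNA1 cells, against 94.6, 93.4 and 171 in luciferase shRNA cells. It differed by -0.58 (limma adjusted p = 0.131), and fell when arrays of 1 number were blocked (limma adjusted p = 0.0304). Spry2 minus Spry4 shifted by 0.71 between the groups (exact permutation p = 0.3, adjusted p = 0.4), with per-array differences of 0.60 ± 0.45 in KIAA1718 shRNA1 cells and -0.11 ± 0.49 in luciferase shRNA cells (SD, n = 3 each, log2).

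**Figure D2:**
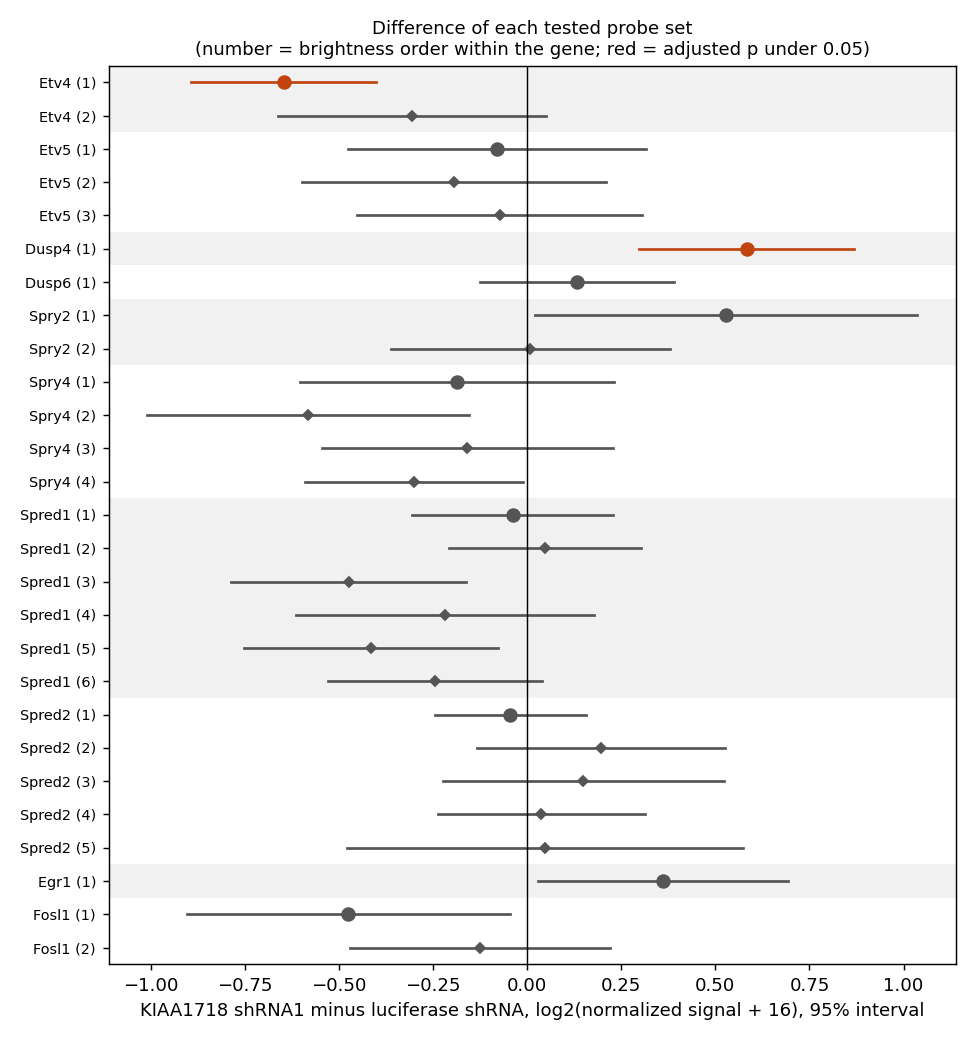
Log2 difference, KIAA1718 shRNA1 minus luciferase shRNA, with its 95% interval for each of the 27 tested probe sets, grouped by gene and ordered by brightness (1 is the brightest, drawn as a circle); red marks an adjusted p under 0.05. The first Etv4 probe set at -0.65 and the Dusp4 probe set at 0.58 are red, and the 4 Spry4 probe sets all lie left of 0.

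Spred1 and Spred2 encode Sprouty-related proteins that restrain the activation of Raf by Ras and bring the Ras inhibitor neurofibromin to the membrane. Spred1 had signals of 276, 376 and 297 in KIAA1718 shRNA1 cells, against 293, 254 and 328 in luciferase shRNA cells, and KIAA1718 shRNA1 replicate 2 was the high array. Its log2 difference was -0.04 with a 95% interval of -0.31 to 0.23 (limma adjusted p = 0.907). Its probe sets did not move alike. The second in brightness differed by 0.05, while the 4 dimmer tested ones differed by -0.47, -0.22, -0.41 and -0.24, with limma adjusted p of 0.0948 or higher. The third in brightness had signals of 69.4, 53.8 and 74.2 in KIAA1718 shRNA1 cells, against 71.7, 92.3 and 104 in luciferase shRNA cells. The probe sets of 1 gene can read different ends or splice forms of its RNA, and the annotation used here does not say which. Another 2 Spred1 probe sets had a mean of 2.80 or less in KIAA1718 shRNA1 cells and of 8.02 or less in luciferase shRNA cells and were not tested.

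Spred2 had signals of 468, 442 and 530.3 in KIAA1718 shRNA1 cells, against 434, 379 and 546 in luciferase shRNA cells. The groups overlapped, and the log2 difference of -0.05 had a 95% interval of -0.25 to 0.16 (limma adjusted p = 0.845), the narrowest interval among the 10 genes. Its other 4 probe sets differed by 0.04 to 0.20 (limma adjusted p of 0.534 or higher). With unscaled signals Spred1, Spred2 and Etv5 turned positive, at 0.11, 0.093 and 0.041, where the median of all genes was 0.11. Spred1 minus Spred2 shifted by 0.0064 (exact permutation p = 1), from -0.59 ± 0.32 in KIAA1718 shRNA1 cells and -0.60 ± 0.11 in luciferase shRNA cells (SD, n = 3 each, log2).

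Egr1 and Fosl1 encode transcription factors that follow ERK activation, Egr1 as an immediate early zinc finger gene and Fosl1, also called Fra1, as a member of the AP-1 family. Egr1 had signals of 844, 572 and 756 in KIAA1718 shRNA1 cells, against 544, 383 and 602 in luciferase shRNA cells. Only KIAA1718 shRNA1 replicate 2 fell inside the luciferase shRNA range. The log2 difference was 0.36 ± 0.15 (SE), with a 95% interval of 0.03 to 0.69 (limma adjusted p = 0.224). Between arrays of the same number it was 0.53, 0.25 and 0.30 for numbers 1, 2 and 3, and Egr1 rose in the fit blocked on that number (limma adjusted p = 0.0346).

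Fosl1 had signals of 34.2, 29.5 and 27.2 in KIAA1718 shRNA1 cells, against 25, 43.0 and 73.2 in luciferase shRNA cells. Luciferase shRNA replicates 2 and 3 were the highest arrays, and after normalization replicate 1, at 5.50 (log2), lay within the KIAA1718 shRNA1 range of 5.30 to 5.68. The log2 difference was -0.47 ± 0.20 (SE), with a 95% interval of -0.90 to -0.05 (limma adjusted p = 0.218), and without luciferase shRNA replicate 1 it was -0.71 (limma adjusted p = 0.0434). The mean normalized level of the 22 fibroblast markers was likewise highest on luciferase shRNA replicates 2 and 3, with replicate 1 inside the KIAA1718 shRNA1 range. It was 7.04, 7.37 and 7.40 (log2) on KIAA1718 shRNA1 replicates 1, 2 and 3. On luciferase shRNA replicates 1, 2 and 3 it was 7.24, 7.996 and 7.98. The part of these markers in the Fosl1 difference was not tested. A second Fosl1 probe set, at 11.6 ± 1.27 in KIAA1718 shRNA1 cells and 12.3 ± 3.83 in luciferase shRNA cells, differed by -0.12 (limma adjusted p = 0.730).

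With replicate number as a block, the calls among the 27 tested probe sets went to 4, namely Etv4 lower, Dusp4 higher, Egr1 higher and the second Spry4 probe set lower; of all tested probe sets 6.23% passed in that fit, and 7.89% of genes. Groups that did not overlap after normalization were found for 2 of the 10 genes, Etv4 and Dusp4, against 27.9% of all genes tested. At an unadjusted p under 0.05, 5 of the 10 genes had intervals that left out 0, against 22% of all genes tested: Etv4 and Fosl1 on the lower side and Dusp4, Spry2 and Egr1 on the higher side. Of the other 5 (Etv5, Dusp6, Spry4, Spred1 and Spred2) the 95% intervals held 0 and reached from -0.60 to 0.39 at their widest.

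**Figure D3:**
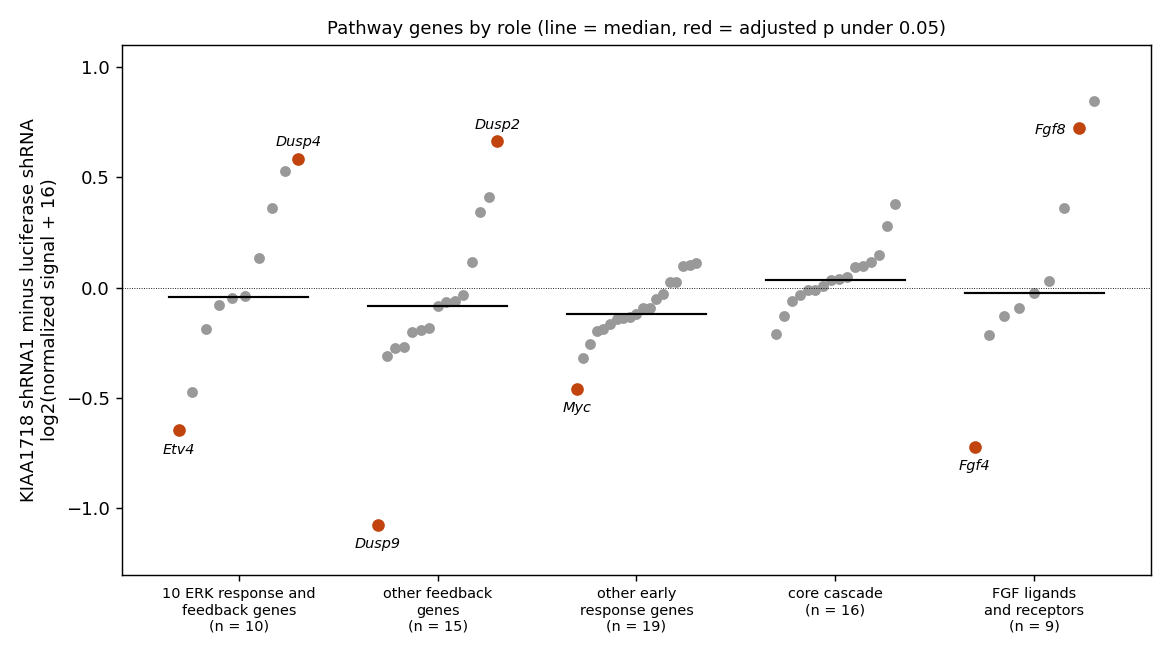
Log2 difference, KIAA1718 shRNA1 minus luciferase shRNA, of each tested gene by role; points are genes by their brightest probe set, lines are medians and red marks an adjusted p under 0.05. The phosphatase gene Dusp9 lies at -1.08, and Dusp2, Dusp4 and Fgf8 lie above 0. Fgf8 entered the test only through the KIAA1718 shRNA1 arrays.

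Other genes of the pathway were taken from 4 lists with 71 symbols, of which 62 were matched on the array and 59 had enough signal to be tested. Of these, 2 passed on the higher side and 3 on the lower side, against 2.64% and 2.17% of all genes tested. These background shares apply to each list below. The higher ones include Fgf8, which entered the test only through the KIAA1718 shRNA1 arrays, as described below. Among 15 tested feedback genes outside the 10, Dusp9 fell and Dusp2 rose, the other 13 did not pass, and the median was -0.08. Dusp9, a cytoplasmic ERK phosphatase gene on the X chromosome that is strongly expressed in mouse embryonic stem cells, had signals of 109, 94.0 and 113 in KIAA1718 shRNA1 cells, against 200.2, 173 and 289 in luciferase shRNA cells. The groups did not overlap, and the log2 difference was -1.08 ± 0.12 (SE), with a 95% interval of -1.35 to -0.80 (limma adjusted p = 0.00120). Its other 2 probe sets fell as well, by 1.11 and 0.74 on the log2 scale (limma adjusted p of 0.00136 and 0.0155), and the call passed in all 14 alternatives, at -1.16 to -0.84.

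Dusp2, a nuclear phosphatase gene of the same family as Dusp4, had signals of 40.8, 29.3 and 41.2 in KIAA1718 shRNA1 cells, against 15.3, 11.5 and 19.6 in luciferase shRNA cells. The groups did not overlap, and the log2 difference was 0.66 ± 0.14 (SE; limma adjusted p = 0.0276). The call passed in 9 of 14 alternatives, and the size ran from 0.31 to 0.95 with the pseudocount. It was lost without a filter on low signal, without KIAA1718 shRNA1 replicates 1 or 3 (0.57 and 0.65) and without luciferase shRNA replicates 2 or 3 (0.61 and 0.67). The ERK phosphatase genes that passed thus went both ways, Dusp9 down and Dusp2 and Dusp4 up.

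**Figure D4:**
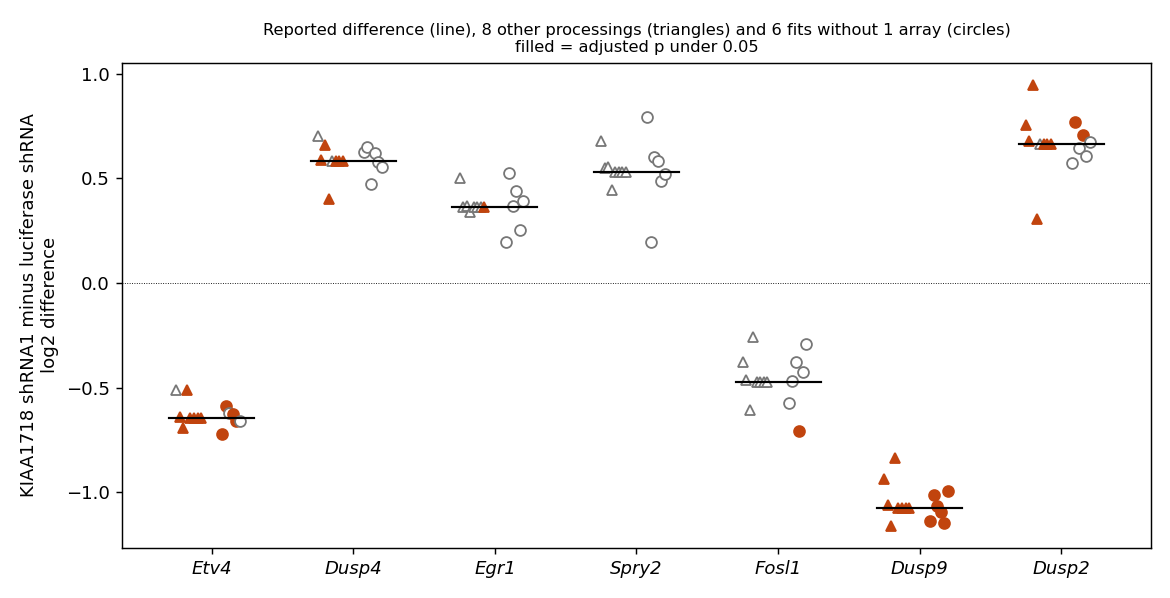
Log2 difference, KIAA1718 shRNA1 minus luciferase shRNA, of 7 genes as reported (line), under 8 other processings (triangles) and in 6 fits without 1 array (circles); filled symbols have an adjusted p under 0.05. Dusp9 is filled throughout, and Dusp4 keeps its side of 0 but is open in all 6 fits without 1 array.

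Of 19 tested early response and transcription factor genes outside the 10, none rose and 1 fell, and the median was -0.12. It was Myc, with signals of 177, 198 and 227 in KIAA1718 shRNA1 cells, against 232, 229.8 and 300.2 in luciferase shRNA cells. The groups did not overlap, and it fell by 0.46 on the log2 scale (limma adjusted p = 0.0326), a call that passed in 5 of 14 alternatives; it was lost in each of the 6 fits without 1 array (-0.49 to -0.42). The ETS factor gene Elk1 had the next smallest p at -0.26 (limma adjusted p = 0.309), from 12.9 ± 1.17 in KIAA1718 shRNA1 cells and 16.9 ± 5.72 in luciferase shRNA cells.

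None of 16 tested genes of the core cascade passed by its brightest probe set (limma), with a median of 0.04. At an unadjusted p under 0.05 there were 2. Gab1, a docking protein gene that links receptors to Ras, had signals of 1059, 918 and 1056 in KIAA1718 shRNA1 cells, against 819, 609 and 730.3 in luciferase shRNA cells. It differed by 0.38 with groups that did not overlap (limma adjusted p = 0.0817, or 0.0181 in the fit blocked on replicate number), and its second probe set passed at 0.51 (limma adjusted p = 0.0496). Nras, a Ras gene, differed by 0.28 (limma adjusted p = 0.210).

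Among 9 tested FGF ligand and receptor genes, Fgf4 fell and Fgf8 rose, and the median was -0.02. Fgf4 had signals of 204, 198 and 220.3 in KIAA1718 shRNA1 cells, against 287, 283 and 394 in luciferase shRNA cells (log2 difference -0.72, limma adjusted p = 0.00332). Of its other 2 tested probe sets 1 fell, by 0.84 on the log2 scale (limma adjusted p = 0.00193), and the dimmer one differed by -0.13 with groups that overlapped (limma adjusted p = 0.685). Fgf8 had signals of 14.98, 17.0 and 19.6 in KIAA1718 shRNA1 cells, against 2.31, 4.11 and 3.35 in luciferase shRNA cells. Its mean normalized value was 5.01 in KIAA1718 shRNA1 cells and 4.29 in luciferase shRNA cells, a value under the filter's limit of 4.49, so Fgf8 entered the test only through the KIAA1718 shRNA1 arrays and its luciferase shRNA signal lies in the range left out as low. The difference of 0.72 (limma adjusted p = 0.0113) therefore gives a direction rather than a size, and it ran from 0.25 to 1.43 with the pseudocount. Both groups of arrays stood apart for both ligand genes. The Fgf8 call was lost without replicate 3 of either group (0.69 without KIAA1718 shRNA1 replicate 3, 0.68 without luciferase shRNA replicate 3), and that of Fgf4 with unscaled signals (-0.58).

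The genes whose normalized levels over the 6 arrays most resembled Etv4 were Asrgl1, Itpk1 and Cnot11, with Pearson correlations of 0.999, 0.998 and 0.998. They differed by -0.63, -1.03 and -0.29. Those most like Dusp4 were Edn1, Nhsl1 and Pno1 (0.998, 0.997 and 0.996), which differed by 0.45, 0.53 and 0.19. The 6 arrays fall into 2 groups, so much of each correlation is the group difference, and with so few arrays 16 genes correlated with Etv4 above 0.99 and 6 with Dusp4, those named included.

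Some markers of other embryonic states passed in the same comparison, where 2.64% of all genes tested were higher and 2.17% lower. Of 8 tested primed epiblast markers 2 rose (Dnmt3b and Pou3f1) and none fell, and of 8 trophectoderm markers 2 rose (Krt8 and Krt18). Of 11 primitive endoderm markers 3 fell (Sox7, Dab2 and Lama1), and of 10 embryonic stem cell markers 3 fell (Fgf4, Esrrb and Utf1). The summed signal of the primed epiblast markers was 1926 to 2215 on KIAA1718 shRNA1 arrays and 1009 to 1310 on luciferase shRNA arrays. Dnmt3b and Pou3f1 carried that gap: the other 6 summed to 325 to 452 on KIAA1718 shRNA1 arrays and 256 to 370 on luciferase shRNA arrays, which overlap. For the trophectoderm markers the sum was 722 to 981 on KIAA1718 shRNA1 arrays and 385 to 504 on luciferase shRNA arrays. Without Krt8 and Krt18 it was 344 to 383 on KIAA1718 shRNA1 arrays and 245 to 334 on luciferase shRNA arrays. The unscaled sums of the other lists overlapped, at 1859 to 2181 on KIAA1718 shRNA1 arrays and 1678 to 2763 on luciferase shRNA arrays for primitive endoderm. The embryonic stem cell sum was 11694 to 12948 on KIAA1718 shRNA1 arrays and 11795 to 14392 on luciferase shRNA arrays. The mean normalized levels of these lists did not overlap: they were 6.41 to 6.47 (log2) on KIAA1718 shRNA1 arrays and 6.61 to 6.89 on luciferase shRNA arrays for primitive endoderm, and 9.66 to 9.83 on KIAA1718 shRNA1 arrays and 10.05 to 10.13 on luciferase shRNA arrays for embryonic stem cell markers. No marker was at a signal of 0, and the part of these markers in the differences of the ERK response and feedback genes was not tested.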

How the data were processed

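RNA abundance was measured on 6 arrays, with groups and numbers read from titles. The authors deposited 1 signal intensity per probe set on a linear scale, made with GCOS per the submitters' processing notes; which algorithm it ran, and how, is not given in the sources used here. Arrays were quantile normalized after leaving out 64 control probe sets, a pseudocount of 16 was added before log2, and probe sets in the lowest 40% by mean log2 value were dropped. limma 3.58.1 in R 4.3.3 (lmFit, eBayes with an intensity trend, two-sided, Benjamini-Hochberg) was run on the other 27022 and tested on simulated data. It recovered 14.9% of simulated log2 changes of 0.5, 79.1% of those of 1 and 92.4% of those of 1.5. Of 131 calls 7 were false. In the simulation, changes near 0.5 were thus mostly missed. The data gave 993 calls against its 131, and the adjusted p depends on how many probe sets change. These shares of recovery therefore do not carry over to the data as they stand. A gene stands for its brightest probe set with 1 symbol; symbols were updated through the Entrez number with RefSeq's GRCm38.p6 table. The number of arrays limits the precision.

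The members and lists were chosen with earlier results of these data known. Genes named are the members; up to 4 genes past the threshold per list, or, if fewer than 2 passed, the 2 of smallest p; the target; and, for the members with the smallest p in either direction, the 3 genes most alike. Of the 71 pathway symbols, 9 were not analysed here. Markers were named after their values were seen.

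Same-numbered arrays deviated together weakly, with correlations of 0.203, 0.125 and 0.132 for numbers 1, 2 and 3, each over 0.1. Between arrays of different numbers and groups the correlations ran from -0.15 to 0.024. No label says what a number marks. The reported fit did not use the numbers. On the basis of the data they were treated as pairs only in the fit blocked on replicate number and in differences within numbers. The 14 alternatives were 8 other settings and 6 fits without 1 array.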

Additional observations from a re-analysis of the deposited data

How the results depend on the processing

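Of the 10 genes, 2 passed as reported, 0 with unscaled signals, 1 without a filter on low signal and 3 with the replicate block. Without 1 array, 0 to 2 passed. Their probe sets past the threshold numbered 0 with unscaled signals, 1 without the filter, 4 with the replicate block and 0 to 2 without 1 array, against 2. Other feedback genes gave 1 without the filter, 3 with a stricter filter and 3 with the replicate block, against 2. Without 1 array they gave 1 to 2. Early response genes gave 0 with unscaled signals, without the filter and without an intensity trend, and 0 in each fit without 1 array, against 1. Core cascade genes gave 1 with the replicate block and 0 to 1 without 1 array, against 0. FGF genes gave 1 with the stricter filter, which tested fewer of them, and 3 with the replicate block, against 2. Without 1 array the FGF genes gave 1 to 3. The cause of the other changes was not tested.

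Directions turned for 4 members that had not passed. Etv5 was 0.041 with unscaled signals, 0.15 without KIAA1718 shRNA1 replicate 2 and 0.02 without luciferase shRNA replicate 1, and -0.24 to 0.15 over the fits without 1 array. Spry4 was 0.040 without luciferase shRNA replicate 3 (-0.39 to 0.040). Spred1 was 0.11 with unscaled signals, 0.0063 and 0.048 without KIAA1718 shRNA1 replicates 1 and 3 (-0.17 to 0.048), and 0.048 on its second probe set. Spred2 was 0.093 with unscaled signals, 0.0083 without KIAA1718 shRNA1 replicate 2 (-0.079 to 0.0083), and 0.20, 0.15, 0.038 and 0.048 on its other probe sets. Without 1 array, Etv4 minus Etv5 shifted by -0.74 to -0.42, Dusp4 minus Dusp6 by 0.33 to 0.54, Spry2 minus Spry4 by 0.45 to 0.97 and Spred1 minus Spred2 by -0.18 to 0.12.

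The replicate block changed the call of Egr1, of the second Spry4 probe set and of Gab1 and Nhsl1, and of no other gene named here by the rule. Probe sets with low signal, such as the second ones of Spry2 and Fosl1, limit what can be detected.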
